A study of Mus musculus with 65 samples.

Results

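The adult haemoglobin genes of the mouse, Hba-a1, Hba-a2, Hbb-bs and Hbb-bt, were followed in single haematopoietic stem cells sorted from aged bone marrow. The 4 genes were chosen by name, and 3 of them (Hba-a1, Hba-a2 and Hbb-bs) were found by their NCBI identifiers among the 18036 rows of the table. Hbb-bt had no row under its identifier and is described below by its sequence only. The series held 65 cells from double heterozygous SCL-tTAxH2B-GFP mice, in which an SCL-driven transactivator switches a histone H2B-GFP reporter, all older than 20 months. The 37 aLR-HSC were GFP positive, that is label-retaining, and the 28 anLR-HSC were GFP negative. In both groups the cells were lineage depleted by magnets and sorted singly as LSK CD34-/low Flk2- CD48- CD150+ cells, then kept overnight at 3% O2 with no growth factors before their message was copied into full-length cDNA (SMART-Seq v4). Repeats 1 to 4 gave 9, 9, 10 and 9 aLR-HSC and 8, 4, 6 and 10 anLR-HSC. Cells of 1 repeat are not replicates, so the groups were compared over the 4 repeats, for which an exact permutation test cannot give a two-sided p below 0.0286.

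Haemoglobin is a tetramer of paired alpha and beta chains, each holding a haem. The alpha genes lie in one cluster and the beta genes in another, each under a distant enhancer, and both are switched on together when red cell precursors mature, until globin mRNA makes up most of the message of the reticulocyte. Haematopoietic stem cells, which give rise to all blood lineages, lie far upstream of that step.

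The mouse carries near-identical copies of each chain. In RefSeq for GRCm38.p6, Hba-a1 spans chr11:32283672-32284486 and Hba-a2 chr11:32296492-32297310 on the plus strand, and Hbb-bs spans chr7:103826523-103827928 and Hbb-bt chr7:103812524-103813923 on the minus strand, each with 3 exons. In GENCODE transcripts the coding sequences of Hba-a1 and Hba-a2 differed at 1 of 426 bases, and those of Hbb-bs and Hbb-bt at 1 of 441 bases. The sequence after the coding part was less alike, at 82.8% identity between the alpha copies and 70.8% between the beta copies. Of the 50-base stretches of the Hba-a1 transcript 67.5% also stood in Hba-a2, and of those of Hbb-bs 65.8% also stood in Hbb-bt. Reads from such stretches cannot be assigned to 1 copy, so the split between Hba-a1 and Hba-a2 is uncertain, as is any part of the Hbb-bs counts that came from Hbb-bt. The Hba-a1 value of 30 cells ended in 0.5 of a count, within 0.01, and in 21 of these cells Hba-a2 was at 0.

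The 120 bases before the start site are shown because the alpha and the beta genes are usually read together and hold like motifs there, although they lie on different chromosomes. RefSeq promoters were found for 4 of 4 genes. Capitals mark matches, on either strand, to these motifs: the TATA box in the form TATAAA or in the form ATATAA, the CCAAT box, the CACCC box bound by the erythroid factor KLF1, the site GATAA bound by GATA factors, and the site TGAGTCA bound by NF-E2.
Hba-a1, chr11:32283552-32283671, plus strand: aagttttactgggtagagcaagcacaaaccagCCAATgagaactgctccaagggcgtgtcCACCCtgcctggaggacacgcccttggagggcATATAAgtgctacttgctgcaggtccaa
Hba-a2, chr11:32296372-32296491, plus strand: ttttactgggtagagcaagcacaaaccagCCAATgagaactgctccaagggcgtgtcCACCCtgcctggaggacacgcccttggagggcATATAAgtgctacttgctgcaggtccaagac
Hbb-bs, chr7:103827929-103828048, minus strand: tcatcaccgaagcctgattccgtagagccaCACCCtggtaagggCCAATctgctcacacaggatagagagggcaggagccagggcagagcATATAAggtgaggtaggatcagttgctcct
Hbb-bt, chr7:103813924-103814043, minus strand: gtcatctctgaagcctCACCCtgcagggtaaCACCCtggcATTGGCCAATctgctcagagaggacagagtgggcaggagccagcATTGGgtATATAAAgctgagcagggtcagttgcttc
The form ATATAA stood in 4 of 4 windows, and so did the CCAAT box and the CACCC box. The form TATAAA stood in the Hbb-bt window, where it overlaps the other form. Among 32851 RefSeq promoters, windows of the same 120 bases held the form ATATAA in 4.47%, the form TATAAA in 6.34%, the CCAAT box in 21.3% and the CACCC box in 31.7%. The site GATAA was in 0 of 4 windows and in 10.5% of all promoters, and the NF-E2 site was in 0 of 4 windows and in 2.3% of all promoters. ATATAA was added to the motifs after the sequences had been read. The ATATAA match began 28 bases before the start in Hba-a1, 31 in Hba-a2, 30 in Hbb-bs and 29 in Hbb-bt. The 2 alpha windows were 95.1% identical, the 2 beta windows 74.6%, and Hba-a1 and Hbb-bs 48.8%.

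The values are estimated counts over the part of the genome in the table, so every share below is a share of that part. Totals ran from 27954 to 20516069 per aLR-HSC (median 264894) and from 86 to 661078 per anLR-HSC (median 118056), and 4 anLR-HSC and 0 aLR-HSC had under 10000 counts. Of the 9 stem cell markers with a row, Hlf was detected in 31 aLR-HSC and 12 anLR-HSC and Gata2 in 24 aLR-HSC and 10 anLR-HSC. Meis1 was detected in 22 aLR-HSC and 11 anLR-HSC. Hoxa9, Hoxb5 and Fgd5 were found in only 5, 2 and 2 cells. Slamf1, the gene of the sort marker CD150, was at 0 in all cells, as were Cd48 and Flt3, which the sort selected against. Some libraries resembled each other closely. The log2 values of aLR-HSC 20, 21 and 22 correlated at 0.964 to 0.984 over all rows and those of aLR-HSC 3 and anLR-HSC 3 at 0.937. The estimated counts of these pairs gave a chi-square of 22.3 to 171.8 per degree of freedom. The kit copies message by PCR and counts no molecules, so this value cannot tell separate cells from repeated libraries of the same cell. What made these libraries alike was not tested. Their globin shares were all at or under 0.00341%. The replicate numbers come from the labels, and nothing there says how many mice each repeat pooled.

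One library stood apart. In the library labelled aLR-HSC 27, of repeat 3, the 3 globin genes held 223334 of 242622 counts, a share of 92.1% (exact binomial 95% interval 91.9 to 92.2%, counting error only). It had 109742 counts of Hba-a1, 30968 of Hba-a2 and 82625 of Hbb-bs. The genes that followed included Alas2, the erythroid first enzyme of haem synthesis, with 1208 counts, and Bpgm, which makes the red cell's 2,3-bisphosphoglycerate, with 862. Slc4a1, the anion exchanger band 3 of the red cell membrane, had 551 counts in this library and was at 0 in the 64 others. Fech, the last enzyme of haem synthesis, had 417 counts. Of the 6 stem cell markers detected in any cell, 0 had a count in it. Other libraries also had a count of none of the 6. At least 1 was detected in 31 of 34 aLR-HSC and 11 of 18 anLR-HSC with under 1% globin. In the anLR-HSC with at least 1% globin it was 7 of 10. The median number detected was 1 in those 18 anLR-HSC and 3 in those 34 aLR-HSC, whose median total was 391698 counts. Library 27 had far fewer counts than that outside the globins, and the part of depth in this difference was not tested. Bpgm and Fech were not particular to it: they held 0.355% and 0.172% of its counts, against 0.722% and 1.29% in anLR-HSC 6. Of the rows of the haem synthesis list 3 of 7 had a count in library 27. Of the red cell membrane and enzyme list it was 6 of 13. Its globin, Alas2 and Slc4a1 counts thus went against its stem cell label, and it held 92.3% of all globin counts of the aLR-HSC. The differences between the groups in mean share, in detection, in the beta part and in summed counts are given below with and without it.

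Globin message was found in nearly every cell and covered several orders of magnitude. At least 1 count of a globin gene was seen in 35 of 37 aLR-HSC and in 26 of 28 anLR-HSC. Hbb-bs ranked 4th and Hba-a1 8th among all rows by the mean share over the cells, and Hba-a2 ranked 66th. Without cell 27 they ranked 13th, 72nd and 458th, with mean shares of 0.587% for Hbb-bs, 0.213% for Hba-a1 and 0.0406% for Hba-a2. The summed share ran from 0 over a median of 0.0185% to 92.1% in aLR-HSC, with 3.46% the highest once cell 27 was left out, and from 0 over a median of 0.279% to 7.93% in anLR-HSC. The ranges overlapped almost completely, but the middle of the anLR-HSC cells lay higher.

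**Figure D1:**
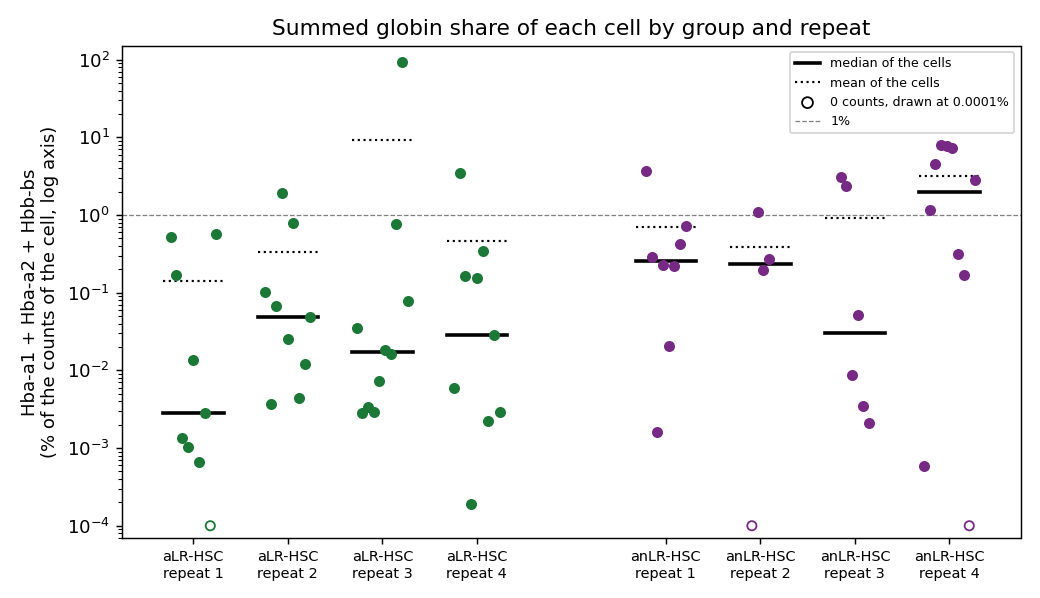
Summed share of Hba-a1, Hba-a2 and Hbb-bs in the counts of each cell (percent, log axis) by group and repeat, with the median (solid line) and the mean (dotted line) of the cells. The medians of the aLR-HSC repeats lie between 0.00279 and 0.048% and those of the anLR-HSC repeats between 0.0303 and 2%, and a single aLR-HSC of repeat 3 sits at 92.1%.

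Averaged over the cells of a repeat, the summed share was 0.143, 0.329, 9.3 and 0.462% in aLR-HSC repeats 1 to 4, against 0.697, 0.386, 0.92 and 3.18% in anLR-HSC repeats 1 to 4. The aLR-HSC value was the higher one in repeat 3 alone, which holds cell 27, and the lower one in the other 3 repeats. The means over the repeats were 2.56 ± 4.5% in aLR-HSC and 1.3 ± 1.28% in anLR-HSC (SD, n = 4 each), a difference of 1.26 percentage points that was smaller than the spread between repeats (exact permutation test, two-sided, p = 0.971). Without cell 27 the mean of aLR-HSC repeat 3 was 0.104%, the mean over the aLR-HSC repeats was 0.26 ± 0.167% (SD, n = 4), and the difference was -1.04 percentage points (exact permutation p = 0.0571). One cell thus turned the direction. Neither value passed 0.05.

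Medians, on which 1 cell weighs little, gave a like picture with all cells kept. They were 0.00279, 0.048, 0.0173 and 0.0283% in aLR-HSC repeats 1 to 4, against 0.257, 0.234, 0.0303 and 2% in anLR-HSC repeats 1 to 4. Each anLR-HSC median was above the aLR-HSC median of the same repeat, but the anLR-HSC median of repeat 3 lay within the aLR-HSC range. The difference of the mean medians was -0.605 percentage points (exact permutation p = 0.0571). On the log2(CPM + 1) scale, with the globins summed, the mean difference was -2.06, with 1 repeat of 4 higher in aLR-HSC (exact permutation p = 0.0571). The share moved with depth: across cells its rank correlation with the total count was -0.541 over 37 aLR-HSC and -0.131 over 28 anLR-HSC, as a description, since both measures share the total. The part of depth in the mean shares was not tested.

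In these libraries, cells rich in globin made up a larger part of the anLR-HSC than of the aLR-HSC. The globins made up at least 1% of the counts in 3 of 37 aLR-HSC and in 10 of 28 anLR-HSC. By repeat this was 0 of 9, 1 of 9, 1 of 10 and 1 of 9 aLR-HSC, against 1 of 8, 1 of 4, 2 of 6 and 6 of 10 anLR-HSC. The mean over the repeats was 8.06 ± 5.4% of aLR-HSC and 32.7 ± 20.1% of anLR-HSC (SD, n = 4 each). The 2 sets of 4 values did not overlap, but only by a narrow margin. The highest aLR-HSC value was 11.1%, 1 cell of 9, and the lowest anLR-HSC value was 12.5%, 1 cell of 8. In anLR-HSC repeat 2 the only cell past 1% was cell 10, at 1.08%. Among the 41 single genes that reached 1% in at least 5 cells, 1 (2.44%) had all its aLR-HSC repeats below all its anLR-HSC repeats. Of these genes 26 (63.4%) had a higher mean in anLR-HSC. The globin value is a sum of 3 genes, so this background is not a like measure. No globin gene alone separated the repeats, since in anLR-HSC repeat 2 none reached 1% in a cell (highest Hbb-bs, 0.883% in cell 10). The 1% level was chosen after the cells had been seen, so these counts carry no test. At a level of 0.5% the counts were 7 of 37 aLR-HSC and 11 of 28 anLR-HSC, and at 2% they were 2 of 37 aLR-HSC and 8 of 28 anLR-HSC, with repeats that overlapped at 2%. Without cell 27, 2 of 36 aLR-HSC reached 1%.

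The cells nearest to 1% were anLR-HSC 10 at 1.08% and, below it, aLR-HSC 15 at 0.8%. Besides cell 27, the aLR-HSC above 1% were cell 13 at 1.9% and cell 30 at 3.46%. Among the anLR-HSC, cell 1 of repeat 1 had 3.68% and cells 13 and 14 of repeat 3 had 3.1% and 2.35%. In repeat 4, cells 20, 21, 22, 23, 24 and 28 had 1.16, 4.54, 7.93, 7.7, 7.18 and 2.83%. The 4 richest anLR-HSC thus all came from repeat 4. Cell 22 among them had a total of only 4220 counts (exact binomial 95% interval of its share 7.12 to 8.77%).

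Detection was nearly complete in both groups at the depth of the libraries. At least 1 globin count was seen in 94.4 ± 6.42% of aLR-HSC and 91.3 ± 11.8% of anLR-HSC (mean of repeats, SD, n = 4 each), a difference of 3.19 percentage points (exact permutation p = 0.886), which was the same without cell 27. Of the 4 cells with 0 counts or less than 1 count in every gene, anLR-HSC 9 and 27 had totals of 238 and 86, so that 0 counts allows a share of up to 1.26% and 3.49% in them. In aLR-HSC 8, with a far deeper library, 0 counts allows up to 0.000126%. Each cell was also thinned to 10000 counts in 1 random draw, which leaves out 4 anLR-HSC and 0 aLR-HSC. A globin count was then left in 23 of 37 aLR-HSC and 20 of 24 anLR-HSC. By repeat that was 62.2 ± 10.6% of aLR-HSC and 85 ± 13.8% of anLR-HSC (SD, n = 4 each), with every aLR-HSC repeat below the anLR-HSC repeat of the same number. The difference was -22.7 percentage points (exact permutation p = 0.0571), and -23.9 without cell 27 (exact permutation p = 0.0571). The median thinned cell held 1 globin count in aLR-HSC, which is at the limit of detection, and 31 in anLR-HSC. At that limit another draw could change which aLR-HSC counted as detected, and no other draw to 10000 counts was made. No cell type that should lack globin was in the series, so a background level was not measured.

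Hba-a1, the main alpha-globin row, had a count in 35 of 37 aLR-HSC and 24 of 28 anLR-HSC. Its mean share was 0.0536, 0.104, 4.61 and 0.0157% in aLR-HSC repeats 1 to 4, against 0.149, 0.0886, 0.399 and 0.728% in anLR-HSC repeats 1 to 4. Repeats 2 and 3 were higher in aLR-HSC and repeats 1 and 4 lower, and the groups overlapped (difference 0.854 percentage points, exact permutation p = 0.971). Without cell 27 the mean over the repeats was 0.067 ± 0.0407% in aLR-HSC and 0.341 ± 0.291% in anLR-HSC (SD, n = 4 each, exact permutation p = 0.0857).

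Hba-a2, the second alpha copy, was the scarcest of the 3 rows, with a count in 12 of 37 aLR-HSC and 14 of 28 anLR-HSC. It held 0.000564, 0.00494, 1.28 and 0% of the counts in aLR-HSC repeats 1 to 4, against 0.0116, 0, 0.0281 and 0.227% in anLR-HSC repeats 1 to 4. It was at 0 in every cell of aLR-HSC repeat 4 and in every cell of anLR-HSC repeat 2. The difference was 0.254 percentage points (exact permutation p = 0.943), and -0.0648 without cell 27 (exact permutation p = 0.143). In 20 of the 42 cells with at least 10 alpha-globin counts Hba-a2 was at 0, and in 6 it made up over 25% of the alpha counts. The highest parts were 58.1% in anLR-HSC 22, 54.3% in anLR-HSC 23 and 52.8% in aLR-HSC 17.

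Hbb-bs, the beta-globin row, had a count in 31 of 37 aLR-HSC and 24 of 28 anLR-HSC. Its mean share was 0.0885, 0.22, 3.41 and 0.447% in aLR-HSC repeats 1 to 4, against 0.536, 0.298, 0.493 and 2.23% in anLR-HSC repeats 1 to 4. It was lower in aLR-HSC in all repeats but repeat 3 (difference 0.154 percentage points, exact permutation p = 0.971). Without cell 27, aLR-HSC averaged 0.191 ± 0.192% and anLR-HSC 0.888 ± 0.898% (SD, n = 4 each), with each of the 4 repeats lower in aLR-HSC (exact permutation p = 0.0571).

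Alpha and beta message did not keep a fixed ratio from cell to cell. Over the 53 cells with at least 10 globin counts, Hbb-bs made up 0 to 100% of the globin counts, with a median of 62.6%. It was under 10% in 7 cells, over 90% in 12 and between 40 and 60% in 9. Low counts were not the only place where this was seen: the 14 cells with at least 1000 globin counts spanned 0.134 to 99.98%. At the beta end, anLR-HSC 24 had 19718.5 counts of Hbb-bs beside 1 of Hba-a1, and aLR-HSC 30 had 6506.5 beside 62. At the alpha end, anLR-HSC 20 had 2985 counts of Hba-a1 beside 4 of Hbb-bs, and aLR-HSC 26 had 1228 beside 3. Cells with both chains in near balance also occurred, such as anLR-HSC 13, 14 and 21, in which Hbb-bs made up 53.2, 55.1 and 47.9%. In the library labelled aLR-HSC 27 it made up 37%. The kit copies a cell's message by PCR and counts no molecules, so intervals from these counts cover counting error only, and the number of starting mRNA molecules behind them is unknown.

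**Figure D2:**
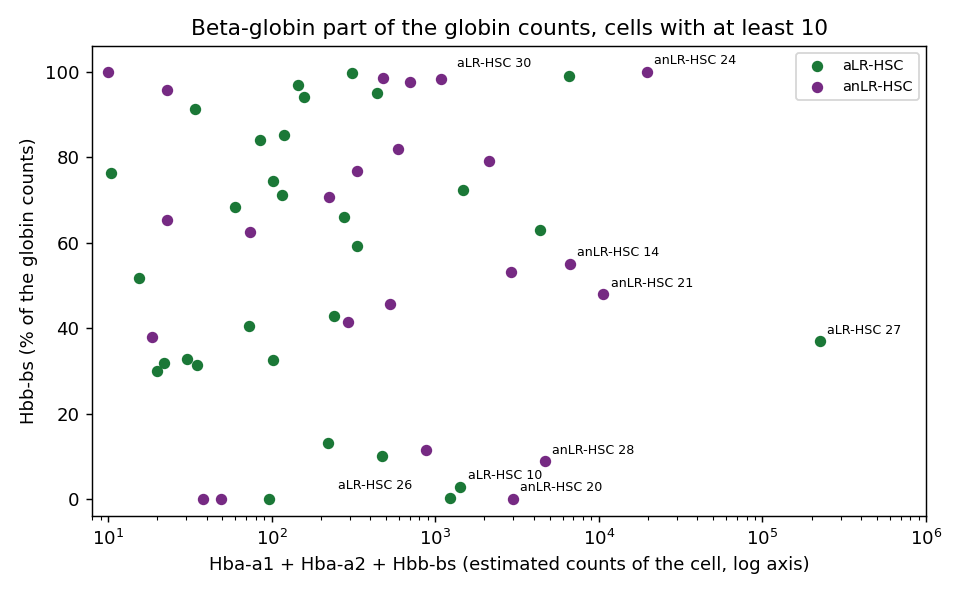
Hbb-bs as a percent of the globin counts of a cell against the number of globin counts (log axis), for the 30 aLR-HSC and 23 anLR-HSC with at least 10 globin counts. Cells with at least 1000 counts lie near 0, near 100 and between, from 0.134% in anLR-HSC 20 to 99.98% in anLR-HSC 24.

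The groups overlapped in this ratio. The beta part of the summed globin counts was 57.1, 51.4, 36.8 and 98.1% in aLR-HSC repeats 1 to 4, against 46.9, 77.5, 54.4 and 68.2% in anLR-HSC repeats 1 to 4. It averaged 60.8 ± 26.2% in aLR-HSC and 61.7 ± 13.7% in anLR-HSC (SD, n = 4 each), and 2 of the 4 repeats were higher in aLR-HSC (exact permutation p = 0.971). Without cell 27, repeat 3 of the aLR-HSC had 8.1% and the aLR-HSC mean was 53.7 ± 36.8% (exact permutation p = 0.743). Across the 65 cells the shares of Hba-a1 and Hbb-bs had a rank correlation of 0.58 (0.56 over the 64 cells without cell 27), a description over cells that share a denominator and a depth.

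**Figure D3:**
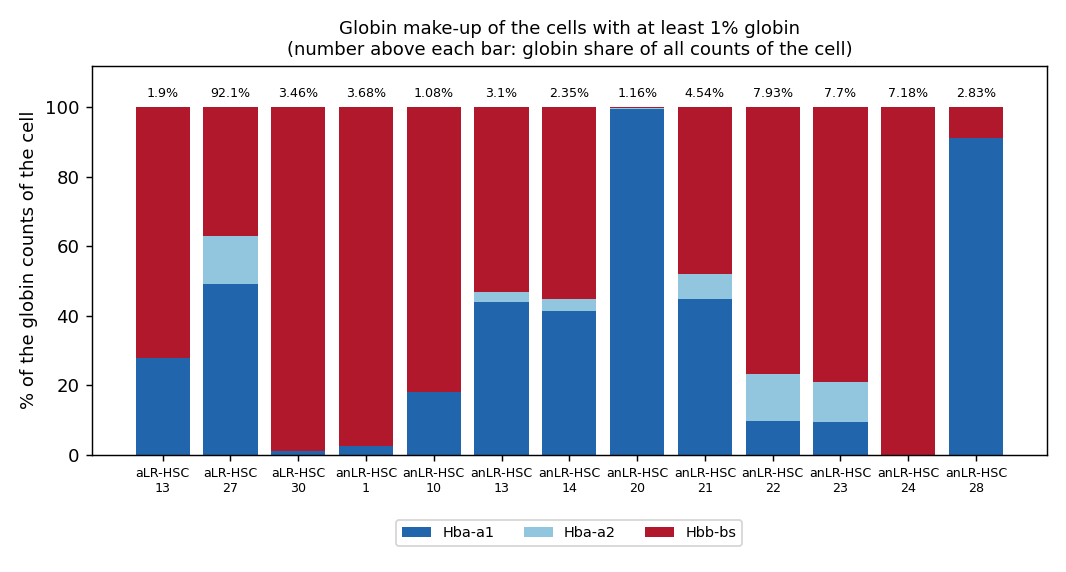
Part of the globin counts from Hba-a1, Hba-a2 and Hbb-bs in each of the 3 aLR-HSC and 10 anLR-HSC with at least 1% globin, with the globin share of all counts above each bar. Neighbouring libraries anLR-HSC 13 and 14 are alike, as are anLR-HSC 22 and 23, while anLR-HSC 20 is nearly all Hba-a1 and anLR-HSC 24 nearly all Hbb-bs.

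Each library had its own pair of i7 and i5 indices, numbered as a position in the labels. Positions ran through the repeats and groups in blocks, so position, repeat and group cannot be told apart. Several runs of neighbouring positions had like globin. The aLR-HSC at positions 39 to 43 of repeat 3 all lay between 0.00286 and 0.0185%, and the anLR-HSC at positions 70 to 73 of repeat 4 lay between 4.54 and 7.93%. Library 27 at position 46 had aLR-HSC 26 beside it with 0.772%, nearly all of it Hba-a1, and aLR-HSC 28 with 0.0786%. By i5 index, the count of cells with at least 1% globin was 0 of 7 for index 502, 1 of 12 for 503, 2 of 11 for 504, 1 of 10 for 505, 3 of 9 for 506, 4 of 11 for 507 and 2 of 5 for 508. By i7 index it ran from 0 of 6 cells to 3 of 5 cells, the highest for index 710, the i7 index of library 27.

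**Figure D4:**
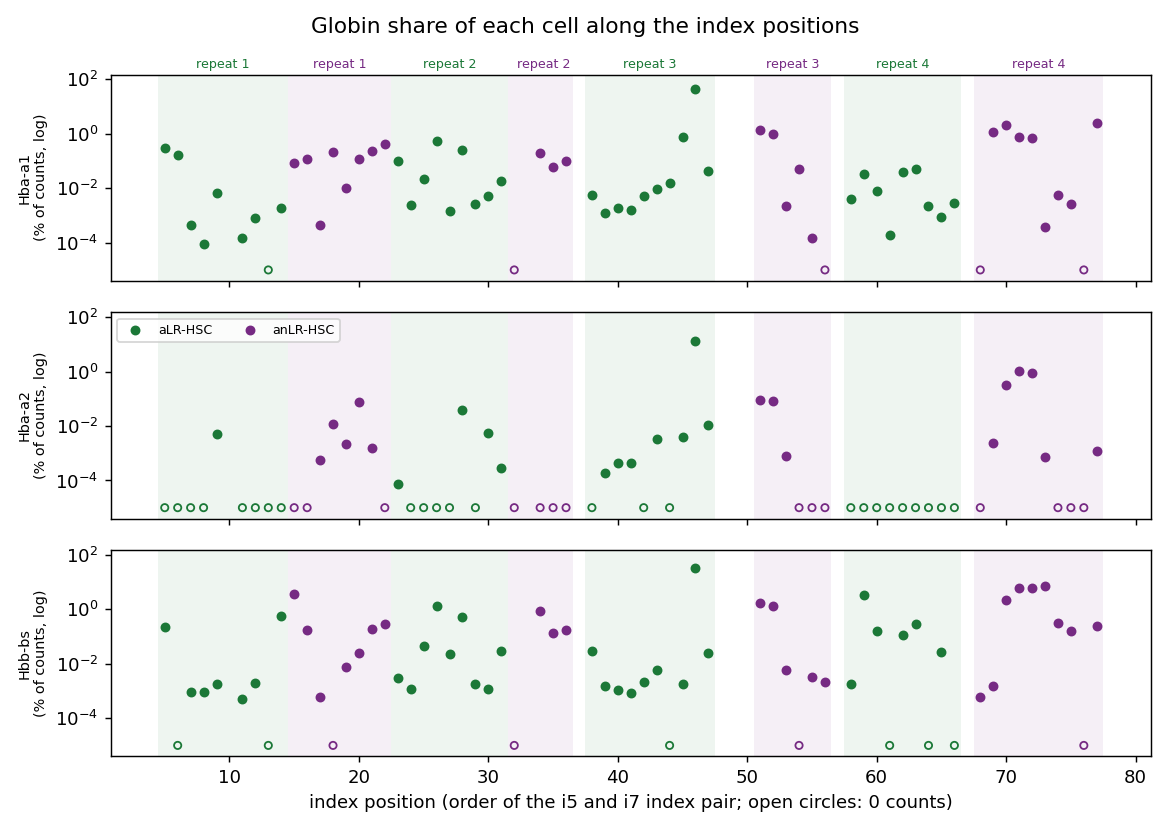
Share of Hba-a1, Hba-a2 and Hbb-bs in the counts of each cell (percent, log axes) along the index positions, with the blocks of aLR-HSC and anLR-HSC shaded by group and open circles at 0 counts. The highest point of each panel is position 46, aLR-HSC 27, and aLR-HSC of repeat 4 all show 0 counts of Hba-a2.

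Libraries at adjacent positions of the same group and repeat were more alike than others. The median correlation of their log2 values over all rows was 0.549 over 55 adjacent pairs, 0.432 over 192 other pairs of the same group and repeat, and 0.369 over 1833 pairs of different groups or repeats. Their globin shares differed by a median of 10.9-fold, 15-fold and 21.1-fold in the same order, over the 51, 176 and 1664 pairs in which both cells had a globin share above 0. The beta part differed by a median of 22.4, 32.2 and 33.4 percentage points over the 37, 126 and 1215 pairs in which both cells had at least 10 globin counts. anLR-HSC 13 and 14 (correlation 0.876) had 3.1% and 2.35% globin and a beta part of 53.2% and 55.1%. anLR-HSC 22 and 23 had 7.93% and 7.7% and a beta part of 76.8% and 79.2%, and anLR-HSC 25 and 26 a beta part of 98.2% and 98.4%. Pairs of cells share libraries, so these medians are descriptions with no test. Whether material passed between neighbouring libraries was not tested.

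Alas2 was mostly not seen beside the globins. Alas2 had a count in 7 cells, 4 aLR-HSC and 3 anLR-HSC. Of the 14 cells with at least 1000 globin counts, 3 had Alas2: 0.541 counts per 100 globin counts in library 27, 0.723 in anLR-HSC 13 and 0.648 in anLR-HSC 14. In the other 11 it was at 0, among them anLR-HSC 24 with 19722 globin counts and anLR-HSC 21 with 10669. Outside these, aLR-HSC 33 had 219.5 counts of Alas2 beside 102 of globin. Of the 17 erythroid markers 5 had a row with any count, and at least 1 was detected in 1 of 3 aLR-HSC and 2 of 10 anLR-HSC with at least 1% globin, against 4 of 34 aLR-HSC and 2 of 18 anLR-HSC with less. The stem cell marker list, including Hlf, Gata2 and Meis1, had at least 1 of 6 detected genes in 2 of 3 aLR-HSC and 7 of 10 anLR-HSC with at least 1% globin, against 31 of 34 aLR-HSC and 11 of 18 anLR-HSC with less. The median total was 189653 counts in the globin-rich aLR-HSC, against 391698 in the other aLR-HSC, and 129615 in the globin-rich anLR-HSC, against 118056 in the other anLR-HSC. The part of depth in these counts was not tested.

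The remaining lists gave little. Of 13 haem synthesis genes 7 had a row and 7 a count in some cell, and Fech was found in 13 aLR-HSC and 7 anLR-HSC. Of 30 red cell membrane and enzyme genes 13 had a row and 11 a count, led by Bpgm in 23 aLR-HSC and 14 anLR-HSC. Of 14 globin chaperones and regulators 6 had a row. Among them Bcl11a, a repressor of embryonic globin, was found in 15 aLR-HSC and 7 anLR-HSC, and Zbtb7a, another such repressor, in 19 aLR-HSC and 7 anLR-HSC. Of the other globins, the embryonic beta-like gene Hbb-bh1 was found in 7 aLR-HSC and 4 anLR-HSC with at most 33 counts, in anLR-HSC 28, and the embryonic genes Hba-x and Hbb-y were at 0 in all cells. Hbq1b, a theta-globin gene, had 1795.5 counts in aLR-HSC 3, 18.5 in aLR-HSC 4 and 40 in anLR-HSC 3, and was at 0 elsewhere. Its highest cell was poor in the adult globins, at 0.00136%. In library 27 the markers of neutrophils, macrophages, lymphocytes and megakaryocytes that had a row were all at 0.

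Sums of counts, 1 for each group in each repeat, were also compared with edgeR's quasi-likelihood test over all 2767 genes that passed a filter on low counts. It called 0 genes, a background of 0% at an adjusted p of 0.05, with 302 genes at an unadjusted p under 0.05. DESeq2 called 14 genes on the same sums. Deep cells weigh most in these sums: aLR-HSC 3 held 20516069 of the 33760758 counts of aLR-HSC repeat 1. The summed counts of Hba-a1 were 479, 3680, 111057 and 144 in aLR-HSC repeats 1 to 4, against 997, 200, 4088 and 12303 in anLR-HSC repeats 1 to 4. Those of Hbb-bs were 748, 4348, 82743 and 7243 in aLR-HSC, against 1158, 687, 5247 and 28739 in anLR-HSC. The log2 fold change was -0.65 ± 2.21 for Hba-a1, 1.02 ± 2.28 for Hba-a2 and -1.95 ± 2.25 for Hbb-bs (± SE), with edgeR adjusted p of 0.867, 0.818 and 0.671. The median of all tested genes stood at 1.14 on this scale, above each of the 3 values. The TMM factors behind it ran from 1.44 to 2.06 in 6 of the 8 sums, and were 0.289 in repeat 3 and 0.222 in repeat 4 of the anLR-HSC. Without cell 27 the values were -6.15, -6.88 and -4.69, and the edgeR adjusted p were 0.44, 0.357 and 0.48 (unadjusted 0.0307, 0.0135 and 0.071). The signs depend on the scaling: with total counts in place of TMM factors, which moved the median of all genes to 1.77, Hba-a1 was at 1.72, Hba-a2 at 3.25 and Hbb-bs at 0.42. Hba-a1 and Hbb-bs lay below the median of all genes under TMM, RLE and total count scaling, while Hba-a2 lay below it under TMM and above it under the other 2. Some of these positions were near ties. Under RLE Hba-a2 was at 0.636 ± 2.3 (SE) against a median of 0.63. Under total counts Hba-a1 was at 1.72 ± 1.65 (SE) against a median of 1.77.

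The genes whose share followed the summed globins most closely were Plau (rank correlation 0.637), Mrpl19 (0.623), Tmppe (0.589), Ptchd1 (0.577) and Prr15 (0.574), over 65 cells and 1847 genes. Plau encodes the urokinase-type plasminogen activator and Mrpl19 a protein of the mitochondrial ribosome. Each of the 5 was detected in at least 60 cells. All these shares have the total count of the cell as a denominator, and the list is a description.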

How the data were processed

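Single-cell cDNA libraries of 37 aLR-HSC and 28 anLR-HSC were analysed from 1 table. Its values are estimated counts that the authors deposited as normalized, made from the mm10 build with DESeq per the submitters' processing notes. The aligner, the counter and their annotation were not given in the sources used. Totals per cell differ widely, and of the values from 0.5 to 20 a median of 72.4% per cell were whole within 0.0001. The values were taken as unscaled counts, which no source states, and rounded after summing. Scaling a cell by 1 factor would leave its shares as they are but not sums over cells. NCBI identifiers matched symbols in RefSeq (GRCm38.p6) for 16216 of 18036 rows.

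The share of a gene is its count over the total of the cell. A cell was called detected at 1 count. Repeats were compared with exact permutation tests and edgeR 4.0.16 (R 4.3.3; TMM, robust quasi-likelihood fit, Benjamini-Hochberg adjustment; mean of at least 10 per cell and a count in at least 10 cells), with DESeq2 1.42.0 as an alternative. The edgeR script was tested on simulated data. Same-numbered sums deviated together (correlations of 0.553, 0.29, 0.17 and 0.16). The groups of a repeat also lay in neighbouring blocks of index positions, and repeat 1 holds the like pair aLR-HSC 3 and anLR-HSC 3. What lies behind these correlations was not tested. A block on the biological repeat number of the labels was run as an alternative. Named genes were the members, the other globins, fixed marker and pathway lists, and the 5 genes of highest rank correlation with the summed globins among those detected in at least 20 cells. The members and lists were chosen with earlier results of these data known.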

Additional observations from a re-analysis of the deposited data

Results flagged for a closer look

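Some libraries or repeats lay far from the others of their group, with a gap to the nearest value that was large for the range of the group. The rule was Dixon's criterion at the 95% level, under which about 1 in 20 groups of normally distributed values is picked by chance. The globin shares span orders of magnitude and the summed share contains its members, so that rate does not hold for them. Of 14 groups of 4 repeat values 6 were picked, and of 8 sets of cells 4. The summed globin share of aLR-HSC repeat 3 was 9.3%, against 0.462% in the next repeat. The same repeat stood out for Hba-a1 at 4.61%, next to 0.104%, for Hba-a2 at 1.28%, next to 0.00494%, and for Hbb-bs at 3.41%, next to 0.447%. All of these contain the library labelled aLR-HSC 27, at 92.1% of its counts, next to 0.772% in its repeat. In anLR-HSC repeat 4, Hba-a2 was at 0.227%, next to 0.0281%, and Hbb-bs at 2.23%, next to 0.536%. Among single cells, anLR-HSC 1 stood out in repeat 1 at 3.68%, next to 0.712%. So did aLR-HSC 13 in repeat 2 at 1.9%, next to 0.8%, and aLR-HSC 30 in repeat 4 at 3.46%, next to 0.341%. Their causes were not tested.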

How the results depend on the processing

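No comparison of the globins passed 0.05, by the exact tests unadjusted or by edgeR's adjusted p, with all cells or under an alternative run here, and several changed direction. Unadjusted edgeR p fell under 0.05 for Hba-a1 and Hba-a2 without cell 27 (0.0307 and 0.0135) and without repeat 3 (0.0443 and 0.0315). The summed globin difference of 1.26 percentage points was -1.04 without aLR-HSC cell 27, also with the replicate block (exact p = 0.125), -0.605 for medians and -2.06 on the log2 scale. Per 100 counts of the other genes, without the highest gene of each cell, it was 29.7 (31.2 in aLR-HSC and 1.53 in anLR-HSC, exact p = 0.971). It ran from -1.11 to 2.59 when a repeat was left out, negative only without repeat 3, and from -1.04 to 1.52 over the cells left out in turn. Without cell 27, Hba-a1, Hba-a2 and Hbb-bs differed by -0.274, -0.0648 and -0.697 points. Leaving out repeats gave -0.264 to 1.38, -0.0777 to 0.415 and -0.768 to 0.798 points. Detection, 3.19 points, was -5.56 in cells of at least 10000 counts and -3.54 at 10 counts, and ran from -4.07 to 7.96 over repeats and from -3.06 to 5.97 over cells. The mean difference in thinned detection stayed negative, from -28.1 to -19.7 over repeats. It was -24.1 at 5000 counts, with 1 of 4 repeats higher in aLR-HSC (exact permutation p = 0.171). At 25000 counts it was -9.1, with 2 of 4 repeats higher in aLR-HSC (exact permutation p = 0.514). The beta part ran from -11.2 to 7.46 points over repeats. In edgeR, 0 genes were called in every alternative fit, and 14 by DESeq2, which gave no p for Hba-a2. The log2 fold change of Hba-a1 was 1.72 with total counts, 0.71 with no filter and 0.65 with rescaled cells, and that of Hbb-bs 0.42 with total counts. With the replicate block Hba-a1, Hba-a2 and Hbb-bs were at -4.16, -2.3 and -3.69 (edgeR adjusted p of 0.667, 0.918 and 0.635), and Hba-a2 was at -6.88 without cell 27. Over repeats left out they ran from -6.51 to 1.23, -6.62 to 2.9 and -3.73 to 0.28. The causes were not tested. With the replicate block the exact test cannot go below 0.125, and it changed no call. The totals cover part of the genome, and 2 libraries, anLR-HSC 9 and 27, are too shallow for 0 counts to exclude a share of 1%. Both were counted among the cells under 1%. The 1% level, the search for like libraries and the setting without cell 27 were chosen after seeing the data, and keeping 1 library of each like set left a difference of 1.82.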
